A study of Mus musculus with 16 samples.

Results

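The potassium channel genes are described here as they were measured by nuclear RNA-seq in mouse embryonic stem cells (ESCs). They were chosen by symbol and by level: every gene whose symbol starts with Kcn, with the exception of the noncoding RNA Kcnq1ot1, was kept where the authors' mean normalized count over all 16 libraries was over 1. Of 97 such symbols, 88 were over that minimum, among 16730 genes over it in the whole series. Each symbol was given by the transcript entry with its highest mean. The levels of the members are therefore a description, and no test was made on them.

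The 16 libraries fell into 4 groups of 4. Wild type was the untreated Ring1a-/-;Ring1bfl/fl line, in which RING1A, one of the catalytic subunits of Polycomb repressive complex 1 (PRC1), was already absent and RING1B was still made. PRC1-null cells were the same line after 800 nM 4-hydroxytamoxifen for 72 h, which deletes the floxed Ring1b gene. PRC2-null cells were the untreated Eed-/-;Ring1a-/-;Ring1bfl/fl line, in which Eed, a core subunit of Polycomb repressive complex 2 (PRC2), was deleted by CRISPR/Cas9, and PRC1/2-null cells were that line after the same tamoxifen treatment. The Eed-deleted line is labelled as 1 clone, B4. All groups thus lack Ring1a, all were ESCs grown on gelatin with serum and leukemia-inhibitory factor, and all libraries were made from rRNA-depleted RNA of isolated nuclei, which holds unspliced as well as spliced transcripts.

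The value used for each gene is a deposited mean of normalized counts over the 16 libraries together, scaled between libraries but not for gene length. It carries no error and no number of replicates per group, so that the levels of the wild-type and the 3 null groups are not told apart in it, and no comparison between these groups is made. The targeted genes were at means of 2723 for Eed, 3208 for Rnf2 (which encodes RING1B) and 19.0 for Ring1 (which encodes RING1A). For Eed and Rnf2 the mean pools cells with and without the deletion, and it does not check the labels. The Ring1a deletion is shared by all groups, and Ring1 was at 9.34 per kb of transcript, against 1317 for Eed and 1015 for Rnf2. The 7 pluripotency markers found (Pou5f1, Sox2, Nanog, Zfp42, Esrrb, Klf4 and Utf1) were at 463 to 1429 normalized counts per kb of transcript. Of the 6 fibroblast and feeder genes, Thy1 was at 74.0 per kb of transcript, Col1a2 at 13.2 and Col1a1 at 8.69, and Dcn, Col3a1 and Lum were at 0.631, 0.181 and 0.116. Among neuronal genes, Stmn2 was at 502 per kb of transcript and Rbfox3 at 214, while Snap25, Syt1 and Tubb3 were at 39.8, 45.4 and 77.1. Of the heart muscle genes, Ryr2 was at 222 and Actn2 at 143, Tnnt2, Myh7 and Myh6 were at 47.9, 33.4 and 13.2, and Nppa was at 0.330. The part of such cells in the levels below was not tested, and in these bulk nuclei fewer cells and less RNA per cell cannot be told apart.

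Potassium channels let potassium ions cross the membrane and set the resting potential, the shape of action potentials and the volume of cells. Most pores are built from 4 subunits around 1 central path; voltage-gated subunits open on depolarization, inward rectifiers pass current better into the cell than out of it, tandem-pore-domain (K2P) channels give a background leak, and another class opens with internal calcium or sodium. Silent subunits make no channel alone and alter the voltage-gated subunits they join, and auxiliary subunits change gating or traffic to the membrane. Many of these genes are best known from neurons and heart muscle. Polycomb complexes occupy the CpG-rich promoters of many developmental genes in ESCs and keep them at a low level of transcription.

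To show the promoters at the extremes of the measured levels, the 250 bases before the start site are given 5′ to 3′ from RefSeq (GRCm38.p6, the build of the authors' alignment, mm10), with CG dinucleotides in capitals. Kcnq5 and Kcnt2 had the highest levels per kb of transcript of all members, Kcnk5 was high on both length scales used below, and Kcnj13 was just over the minimum.
Kcnq5 (chr1:21961943-21962192, minus strand): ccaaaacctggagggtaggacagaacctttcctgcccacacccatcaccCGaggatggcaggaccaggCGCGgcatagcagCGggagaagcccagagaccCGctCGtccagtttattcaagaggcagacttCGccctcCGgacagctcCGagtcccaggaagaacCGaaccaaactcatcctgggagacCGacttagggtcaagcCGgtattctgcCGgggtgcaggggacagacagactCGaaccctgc
Kcnt2 (chr1:140245468-140245717, plus strand): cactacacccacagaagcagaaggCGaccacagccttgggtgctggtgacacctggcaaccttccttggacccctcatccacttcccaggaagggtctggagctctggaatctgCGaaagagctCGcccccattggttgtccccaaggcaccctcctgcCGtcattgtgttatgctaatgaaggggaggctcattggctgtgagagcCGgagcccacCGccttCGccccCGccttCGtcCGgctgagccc
Kcnk5 (chr14:20181783-20182032, minus strand): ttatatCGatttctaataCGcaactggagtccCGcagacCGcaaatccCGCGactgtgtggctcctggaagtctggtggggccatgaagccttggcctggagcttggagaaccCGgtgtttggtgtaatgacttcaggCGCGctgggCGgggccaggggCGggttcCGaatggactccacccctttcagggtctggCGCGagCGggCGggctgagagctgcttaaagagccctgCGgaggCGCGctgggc
Kcnj13 (chr1:87394730-87394979, minus strand): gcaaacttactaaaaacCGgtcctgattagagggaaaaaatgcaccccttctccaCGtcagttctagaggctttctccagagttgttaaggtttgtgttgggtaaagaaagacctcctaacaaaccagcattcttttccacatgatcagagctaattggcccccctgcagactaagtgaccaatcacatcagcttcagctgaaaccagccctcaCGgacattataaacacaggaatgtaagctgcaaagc
These stretches held 14 CG dinucleotides for Kcnq5, 10 for Kcnt2, 19 for Kcnk5 and 3 for Kcnj13.

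Kcnq5, a voltage-gated pore subunit of the M-type current that restrains repetitive firing, stood apart by mean and per kb of transcript. Its mean was 18012 normalized counts, 50.5% of the sum over the 88 genes, and only 35 of the 16730 genes of the series had a higher mean. Per kb of transcript Kcnq5 was at 2582 normalized counts, 4.63 times the next member. The gene spans 563535 nt on chromosome 1 (21398408 to 21961942, minus strand, entry NM_001160139), and per kb of this span it was at 31.96. On that scale it came after Kcnk6 (57.1) and before Kcna1 (26.8) and Kcnk1 (25.4), at percentile 68.5 of all genes over the minimum. No other entry of the tables overlaps its span, but 4 other annotated genes do, and their part in its value was not tested.

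Most potassium channel genes lay under the median of all genes. Their own median was 24.2 normalized counts per kb of transcript against 119 for all genes over the same minimum, and 2.15 against 14.9 per kb of gene span. On the transcript scale 11 of 88 members were over the median of all genes, and on the span scale 7 of 88. Over both medians were 4 members, Kcnq5 and the K2P genes Kcnk1, Kcnk5 and Kcnk6, and 74 members were over neither. In normalized counts, with no scaling for length, the median was 84.3 for the members and 305 for all genes. A mean of at least 100 was reached by 40 of 88 members (45.5%) and by 66.6% of all genes, and 17 members (19.3%) and 13.4% of all genes were under 10. The members were 0.526% of the genes and held 0.207% of the summed means.

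**Figure D1:**
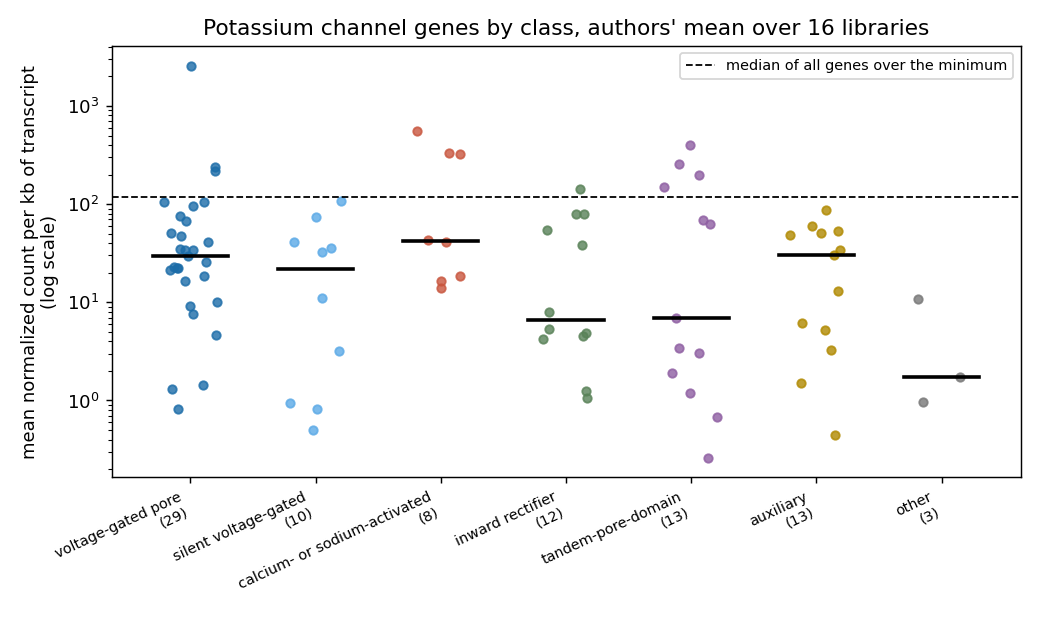
Level of each of the 88 potassium channel genes (points) by class, as the authors' mean normalized count over 16 libraries per kb of transcript, on a log scale; bars are class medians, the dashed line is the median of all genes over the minimum (119), and the number of genes stands under each class. Kcnq5, at 2582, lies above all other members, and every class median lies under the dashed line.

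The voltage-gated pore subunits were the largest class, with 29 genes and a median of 29.3 normalized counts per kb of transcript. Within the Kcnq family, Kcnq1, which carries a slow repolarizing current in the heart, was at 218 per kb of transcript and Kcnq3, a subunit of the M channel of neurons, at 33.8. The value of Kcnq1 (mean 661) is uncertain, because the antisense RNA Kcnq1ot1 lies within its span on the opposite strand with a mean of 5500.

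Among the A-type subunits, which give fast inactivating currents, Kcnd2 was at 239 normalized counts per kb of transcript, Kcnd3 at 68.1 and Kcnd1 at 16.3. Their means were 1229.8, 488 and 86.2 normalized counts. Kcnb2, a subunit of slowly inactivating delayed rectifiers, had a mean of 756, but its transcript is the longest of the class (14845 nt) and per kb it was at 50.9. The ether-a-go-go subunits Kcnh1 and Kcnh7 had means of 545 and 451 and were at 76.2 and 33.9 per kb of transcript. Kcnh7 overlaps Gca (mean 765) on the opposite strand. Kcnh2, the channel of the rapid repolarizing current of the heart, was at 47.8 per kb of transcript. The other Kcnh genes (Kcnh3, Kcnh6, Kcnh8, Kcnh5 and Kcnh4) ranged from 23.0 down to 4.60 on that scale.

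Of the Kcnc family, Kcnc2 was at 105 per kb of transcript, Kcnc4 at 22.1 and Kcnc1 at 9.10. The Shaker-related Kcna genes were low on the transcript scale: Kcna1 was at 29.3, Kcna6 at 25.4, Kcna7 at 9.96 and Kcna3 at 7.66, and Kcna2, Kcna5 and Kcna4 were at 1.44, 1.31 and 0.813. Kcna10 stayed under the minimum.

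The 10 silent subunits had a median of 21.8 normalized counts per kb of transcript. Kcng3 (mean 366) was at 109 per kb and Kcns3 (mean 218) at 74.4. Kcng2, Kcng1, Kcns1, Kcnf1 and Kcng4 ranged from 41.3 down to 3.17, and the low end was formed by Kcns2, Kcnv2 and Kcnv1 at 0.938, 0.818 and 0.501.

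The 8 channels activated by calcium or sodium had the highest class median, 42.5 per kb of transcript, and 3 of them were among the 10 highest members on that scale. Kcnt2, a sodium-activated pore, was at 557 normalized counts per kb (mean 1973). Kcnma1, the pore of the large-conductance channel, was at 335 (mean 1179), and Kcnn2, a small-conductance channel, at 326 (mean 562). All 3 are long genes, and per kb of span they were at 5.43, 1.70 and 4.48, under the median of all genes. The class median per kb of span was 2.43, under those of the inward rectifiers (3.54) and the silent subunits (2.65). Kcnn3, Kcnt1, Kcnn1, Kcnu1 and Kcnn4 followed with 43.5, 41.6, 18.5, 16.4 and 13.95 per kb of transcript. The annotated transcripts of Kcnt2, Kcnma1 and Kcnn2 are almost wholly coding, with 3405 of 3540 nt, 3513 of 3516 and 1722 of 1725. Those of the voltage-gated Kcnd2 and Kcnb2 hold 1890 coding nt of 5152 and 2721 of 14845. The order of classes per kb of transcript thus depends on how much noncoding transcript is annotated, and class medians per coding length are not given here. The auxiliary subunits of the large-conductance channel ranged widely: Kcnmb4, best known from brain, was at 88.05, Kcnmb2 at 5.18 and Kcnmb1, the subunit of smooth muscle, at 0.444, while Kcnmb3 was under the minimum.

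The 12 inward rectifiers had a median of 3.54 per kb of span, the highest of any class, but of 6.64 per kb of transcript. Kcnj3, a subunit of G-protein-gated channels, was highest at 143 (mean 583), although its partner subunits Kcnj9, Kcnj6 and Kcnj5 were at 7.89, 4.82 and 1.24. Kcnj12 and Kcnj4, strong rectifiers, were at 79.5 and 79.1, and Kcnj10, best known from glia, at 53.9 (mean 291). Kcnj11, the pore of the ATP-sensitive channel of beta cells, was at 4.22 and its relative Kcnj8 was under the minimum. Kcnj14 was at 37.9, and Kcnj15, Kcnj2 and Kcnj13 were at 5.39, 4.49 and 1.06.

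The 13 K2P genes split widely. Kcnk1 was at 403 normalized counts per kb of transcript, Kcnk5, a channel sensitive to external pH, at 258, Kcnk2, a mechanosensitive channel, at 196 and Kcnk6 at 148. Kcnk13 and Kcnk12 were at 68.6 and 62.5, while 7 of the 13 were under 7 and Kcnk9 was the lowest of all 88 at 0.260. The means of Kcnk1, Kcnk5 and Kcnk6 were 901, 875 and 605. These 3 genes are short beside most members of like mean, with spans of 35516, 41753 and 10590 nt, and per kb of span Kcnk6 was the highest of all members, at 57.1, with Kcnk1 at 25.4 and Kcnk5 at 21.0.

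The 13 auxiliary subunits had a median of 30.1 per kb of transcript and none of them was over the median of all genes on that scale. Kcnab2 and Kcnab3, cytoplasmic beta subunits of voltage-gated channels, were at 53.1 and 48.0, and the calcium-binding Kcnip3 and Kcnip4, which join the A-type subunits, at 59.7 and 50.9. Kcnip2, Kcnip1 and Kcnab1 were at 34.5, 30.1 and 13.1. The Kcne genes, small membrane subunits, were at 6.14 for Kcne3, 3.25 for Kcne1l and 1.52 for Kcne1, and Kcne2 and Kcne4 were under the minimum. The remaining 3 members were Kcnrg, a regulator of channel assembly (10.9 per kb of transcript), and the noncoding RNAs Kcnmb4os2 (1.75) and Kcnd3os (0.963). The span of Kcnrg overlaps Dleu2 on the opposite strand, which had a mean of 2181 against 19.2 for Kcnrg.

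**Figure D2:**
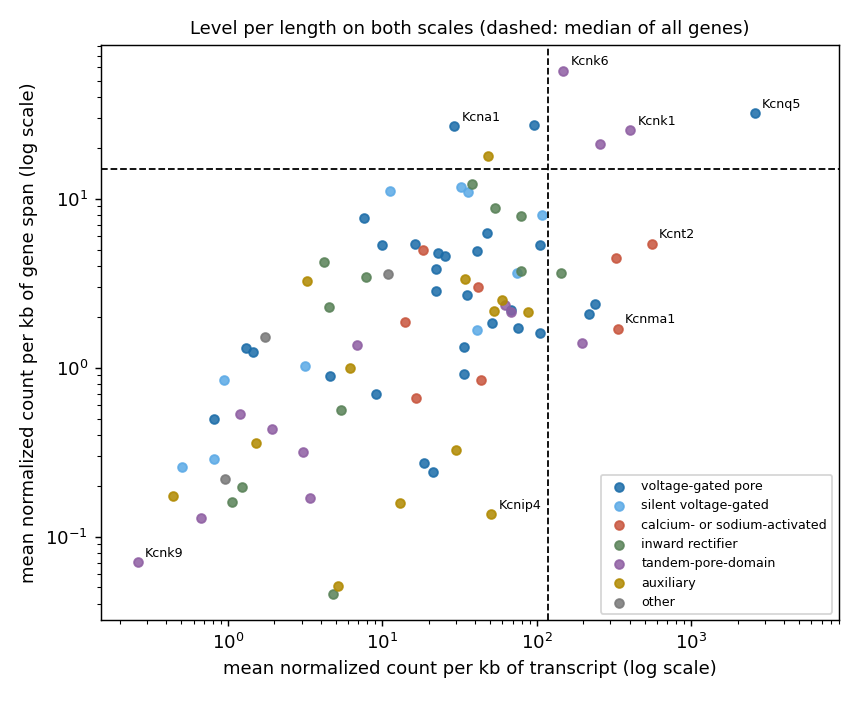
Each of the 88 genes by its mean normalized count per kb of transcript (horizontal) and per kb of gene span, introns included (vertical), both on log scales, colored by class; dashed lines are the medians of all genes over the minimum (119 and 14.9). Kcnq5, Kcnk1, Kcnk5 and Kcnk6 lie over both lines, and Kcnip4, with the longest span of any member, is at 50.9 per kb of transcript but 0.136 per kb of span.

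Which members led depended on the length used. Of the 10 members with the highest means, 8 were among the 10 highest per kb of transcript and 4 among the 10 highest per kb of span. The 10 highest per kb of span ranged from 57.1 down to 11.2 and included Kcnk6, Kcnq5, Kcna1, Kcnk1, Kcnk5, Kcnab3, Kcnj14, Kcns1 and Kcnf1. Across the 88 genes the mean followed the gene span (Spearman's rho 0.64) more than the transcript length (0.22). Across all genes the same values were 0.43 and 0.40 (n = 16545). These are correlations across genes, which share the 16 libraries and are not independent replicates. Among the 10 highest members by mean, 7 span over 100 kb, against 23 of all 88.

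**Figure D3:**
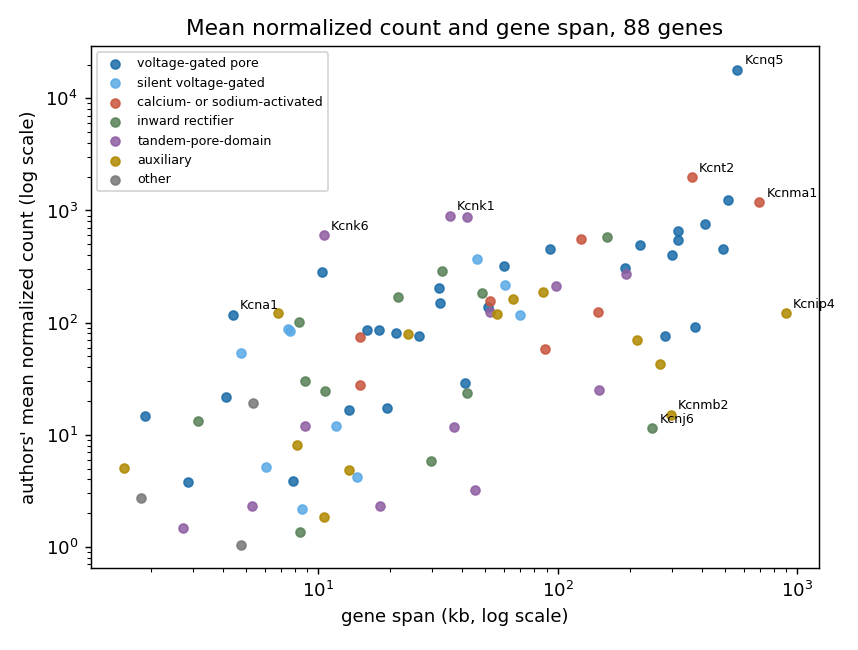
Mean normalized count of each of the 88 genes (vertical) against its gene span in kb (horizontal), both on log scales, colored by class. Genes over 100 kb hold most of the highest means, while Kcnk1, Kcnk5 and Kcnk6 are high for their span and Kcnip4, Kcnmb2 and Kcnj6 are low for theirs.

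Where a symbol had several transcript entries, these could differ widely. Of the 13 members with more than 1 entry, 6 had entries within 1.2 times of each other and 5 had a highest entry of at least 2 times the lowest. The entry with the highest mean had the longer span in 11 of the 13 genes. Kcnip4 was the main exception: its entry of 896148 nt had a mean of 121.9, and another entry, which extends further in the same gene, had a mean of 1.97. For Kcnj12 the entries were at 182 and 44.2, for Kcnj6 at 11.4 and 2.00, for Kcnab1 at 42.4 and 16.5, and for Kcnab2 at 188 and 83.5. How reads were shared between entries of 1 gene is not given in the sources used here, and the cause of these differences was not tested. The span of Kcnip4 also overlaps 5730480H06Rik (mean 401), and that of Kcnab1 overlaps A730090N16Rik (mean 119), both on the opposite strand.

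The levels of neighboring Kcn genes were set side by side. There were 12 pairs of Kcn genes within 100 kb of each other, overlapping pairs included, and both genes were over the minimum in 5 of them. Per kb of transcript 1 pair was within 1.5 times, 8 pairs differed by more, and 3 held a gene listed at 0. The pairs include noncoding RNAs and genes under the minimum, and they were not compared with pairs of other genes. Kcna1 and Kcna6, 63536 nt apart on chromosome 6, were at 29.3 and 25.4 normalized counts per kb of transcript. Kcnj9 and Kcnj10, which lie 11892 nt apart on chromosome 1 and are transcribed away from each other, were at 7.89 and 53.9. Kcna3 and Kcna2 on chromosome 3 were at 7.66 and 1.44, and Kcna10, on the far side of Kcna2, was under the minimum. Kcnk5, at 258 per kb of transcript, lies 80947 nt from Kcnk16, which had 5 reads in all 16 libraries. Of the 88 members, 12 overlapped an entry of another gene in the tables, in each case on the opposite strand, and in 8 of these the overlapping gene had the higher mean, among them Kcnj13 (mean 1.35), which overlaps Gigyf2 (mean 10140). The library kit marks strand, but the sources used here do not say if strand was used in counting, so the values of these members are uncertain. Annotated genes without a value here overlap further members. Only 46 of the 88 members had no other annotated gene in their span. For the rest, the part of such genes in the members' values was not tested.

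The low end of the set could be traced to single reads. Means that come from few reads are sums of what 1 read is worth in each library, and from the lowest means of all genes 1 read was found to be worth 0.0365 to 0.0882 in the 16 libraries (size factors from 0.709 to 1.71). Just over the minimum lay Kcnk7 with a mean of 1.46 (28 reads in 9 libraries), Kcnj13 with 1.35 (20 reads in 8 libraries) and Kcnd3os with 1.05 (16 reads in 7 libraries). Just under it lay Kcnj8 with 0.810 (12 reads in 6 libraries), Kcne2 with 0.758 (12 reads in 6 libraries) and Kcnj16 with 0.454 (8 reads in 3 libraries). Kcne4 and Kcnmb3 had 5 reads each, as did Kcnk16, and both reads of Kcna10 came from 1 library. The libraries were sequenced in paired ends, and it is not given if mates were counted singly or as 1 fragment. Some of these reads may therefore be mates of the same fragment. Kcnj1 and Kcnmb4os1 were listed at 0, which allows a mean of up to 0.194 at 3 reads of median worth, for counting error only and with reads taken as independent. Which group these libraries belong to is not known.

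CpG content was read from the promoters of the members and of all genes, since Polycomb complexes are known to occupy CpG-rich promoters. A promoter counted as CpG-rich where the 300 bases from 250 before to 50 after the start held CG at an observed over expected ratio of at least 0.6 and at least 50% GC; CG reads the same on both strands. RefSeq promoters were matched for 63 of the 88 members, and 24 of these (38.1%) were CpG-rich, against 60.4% of 13179 promoters of all genes. With a ratio of at least 0.75 and at least 55% GC it was 14 of 63 (22.2%) against 40.3%. Their median ratio was 0.525 against 0.717, while their median GC content was 62.7% against 60.3%. Of 26 promoters of members with a mean of at least 100, 14 were CpG-rich (53.8%, against 75.0% of all genes at that level). Between 10 and 100 it was 8 of 25 (32.0% against 39.3%), and under 10 it was 2 of 12 (16.7% against 14.9%). By class the voltage-gated pore subunits had 11 of 19 CpG-rich promoters, the silent subunits 3 of 5, the inward rectifiers and the K2P genes 3 of 10 each, the auxiliary subunits 2 of 11 and the channels activated by calcium or sodium 1 of 5.

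**Figure D4:**
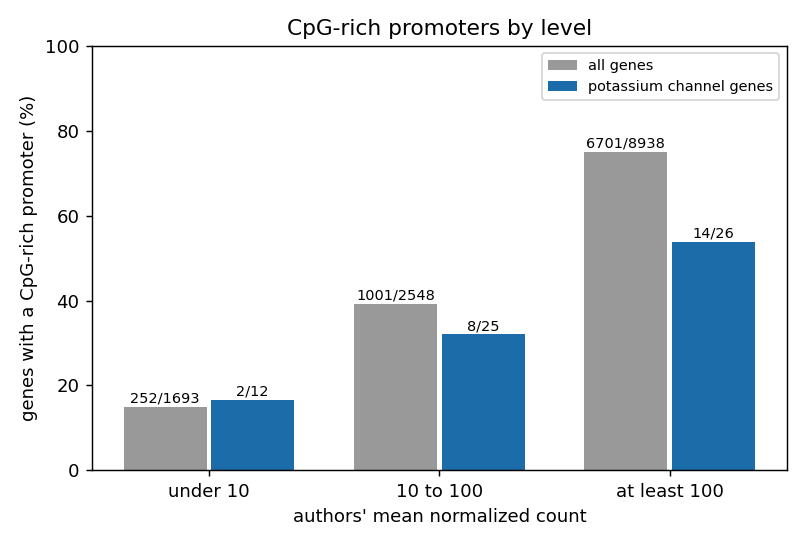
Share of genes with a CpG-rich promoter (vertical, in percent) at 3 ranges of the mean normalized count, for all genes over the minimum (gray) and the potassium channel genes (blue), with the number of CpG-rich promoters over the number matched above each bar. In both sets the share is higher at higher levels, up to 75.0% and 53.8% at means of at least 100.

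Across the 63 members the mean went with the CpG ratio at a Spearman's rho of 0.34, and across the 13179 genes at 0.51, as a description of genes that share the 16 libraries. Single members lay on either side of this. Kcnq5 (ratio 0.681), Kcnd2 (0.740), Kcnma1 (0.789) and Kcnk5 (0.878) had CpG-rich promoters, but Kcnt2, the second highest member per kb of transcript, was at 0.409, Kcnj3 at 0.408 and Kcnk2 at 0.435. In the other direction Kcnj6, at 4.82 per kb of transcript, had the highest ratio of the 63, 1.04, and Kcna3 and Kcna2 were at 0.952 and 0.932. Of the 63 promoters, 59 start within 1000 nt of the start of the entry used. Those of Kcnj3 and Kcnc1 start 1195 and 1180 nt from it and those of Kcnh2 and Kcnj12 22013 and 43240 nt, and they may not be those of the entry. A CpG ratio is a description of these bases and not of any factor bound there.

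Beside the potassium channels, other genes of membrane excitability ranged from low to very high in the same means. The 9 sodium channel genes had a median of 3.70 per kb of transcript, with Scn8a highest at 64.0. The 10 voltage-gated calcium channel genes had a median of 35.9, with Cacna1a, the pore of the P/Q-type current, at 543. The 4 Hcn genes, pacemaker channels that are close relatives of the Kcnh genes, had a median of 22.2. The 6 genes found of the sodium-potassium pump, which builds the potassium gradient, had a median of 137 per kb of transcript, with Atp1b1 at 1350, and the 6 cation-chloride cotransporters had a median of 323. The 22 Kctd genes, whose proteins share the tetramerization domain of voltage-gated channels but form no pore, had a median of 135. Per kb of transcript the median of the potassium channel genes (24.2) thus lay between those of the sodium and the calcium channels. That median was under those of the pump, the cotransporters and the Kctd genes. Per kb of gene span the potassium channel genes were at a median of 2.15. The middle genes of the calcium channels on that scale, Cacna1c and Cacna1d, were at 2.24 and 2.05.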

How the data were processed

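Nuclear RNA-seq was analysed for 16 mouse ESC libraries, 4 per group, grouped by the labels. According to the methods and the submitters' processing notes, the authors removed rRNA reads with Bowtie2, aligned the rest to mm10 with STAR, removed PCR duplicates and ran DESeq2 on a nonredundant gene set; versions, the counting step and its use of strand are not given in the sources used here. The deposited signal of an entry is 1 mean of normalized counts from the 16 libraries pooled, after the authors' scaling for library size, and the 3 tables held identical values. The 6 other value columns of each table hold the authors' own comparisons of a null group with wild type (moderated and unshrunken log2 fold changes, a standard error, the Wald statistic and p-values), and they were not used. No differences between groups were therefore tested, although such tests had been planned.

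A gene symbol was found for 20560 of the 20633 entries (20446 in RefSeq and a further 114 in GENCODE vM21), and 1 entry per symbol, the one with the highest mean, was kept. Transcript, coding and span lengths and positions came from GENCODE vM21 (20264 entries), and promoters from RefSeq GRCm38.p6. The named genes were the 15 highest members by mean, the 2 highest of each class, those among the 10 highest per length and the 3 on either side of the minimum; other members of the fixed classes are given by value beside them, and a few genes are not reported here. The members and lists were chosen with earlier results of these data known. The worth of 1 read in each library was solved from the lowest means. All 906 entries with a mean of at most 0.3 came out as exactly 1 set of whole reads (tolerance 1e-14). They include the entries that gave these worths, so they are no independent check. The step was also tested on simulated data. Kcnk7, Kcnj13 and Kcnd3os, with 28, 20 and 16 reads, lie over that limit, and each also came out as exactly 1 set. Size factors differed by 2.41 times between libraries, which could not be tied to groups. The work was done in Python 3.11.15 (pandas 2.3.3, numpy 2.4.6; scipy 1.17.1; figures with matplotlib 3.10.9).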

Additional observations from a re-analysis of the deposited data

How the results depend on the processing

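Of 14 alternative settings, 11 left the value within 1.5 times of that reported, among them summing the entries of a symbol and minimums of 0.5, 2 and 10. The number of members at a mean of at least 100 was 40, and 25 reached 200. Of the 10 highest members by mean, 4 in place of 8 were among the 10 highest per length when the whole gene span was used. There were 14 CpG-rich promoters in place of 24 under a ratio of at least 0.75 and GC of at least 55%. The coding length was taken from GENCODE in place of the protein length. The count of proteins with the selectivity filter signature and its alternative were not run, since no protein sequences were used here. No paired analysis was possible because the values used are means over all 16 libraries, and for the same reason no replicate could be left out. The precision of the higher means cannot be given, and the 3 lowest members rest on 16 to 28 reads.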
